A study of Homo sapiens with 15 samples.

Results

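The 8 genes described here are metallothionein 2A (MT2A), 5 metallothionein 1 genes (MT1X, MT1E, MT1F, MT1G and MT1M), the transcription factor MTF1 and the zinc exporter SLC30A1, also called ZnT1. They were taken by symbol from count tables that list 43388 genes, and all 8 symbols were found. RNA was sequenced from A549, an established line of human lung adenocarcinoma cells with a wild-type genotype label, that had been held for 72 hours at 95% oxygen (hyperoxia) or at 21% (normoxia). Before exposure the cells were kept for 24 hours with 1e-05 mM all-trans retinoic acid (ATRA), with its ethanol vehicle, or, by their labels, with neither. Each oxygen exposure had 2 libraries with vehicle, 3 with ATRA and 2 without vehicle, and 1 further library, whose title and treatment label name different things, entered no comparison. All groups share one cell line, and nothing in the labels says whether libraries of a group came from separate cultures, so the p-values measure the spread between these libraries only.

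Metallothioneins are short, cysteine-rich proteins that bind zinc and copper in the cytoplasm, buffer free metal and react with oxidants. MTF1 is the zinc-sensing factor that binds metal response elements in the promoters of metallothionein genes and of SLC30A1. SLC30A1 sits in the plasma membrane and carries zinc out of the cell. Its transcript and those of metallothioneins respond to zinc in many cell types.

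The 6 metallothionein genes lie in one cluster on chromosome 16 of hg38, from the start of MT2A at 56608584 to the end of MT1X at 56684196, with MT1G on the minus strand and the others on the plus strand. MTF1 (chromosome 1, 37809574 to 37859592) and SLC30A1 (chromosome 1, 211571568 to 211579161) are both on the minus strand. The promoters of MT2A, SLC30A1 and MT1X are printed because they carry the letters that MTF1 is known to recognise. They were also chosen because MT2A and SLC30A1 passed the oxygen test with vehicle, given below, and MT1X did not. The responses of the genes were not tested against each other. Each sequence is the 250 bases before the transcription start, 5′ to 3′ on the gene's strand, from RefSeq for GRCh38.p14, and lies outside the gene. Capitals mark every match to the core of the metal response element, searched as TGCACNC and TGCGCNC on both strands. No match overlapped another. The first is at chr16:56608334-56608583 (plus strand), the second at chr1:211579162-211579411 (minus strand) and the third at chr16:56682220-56682469 (plus strand).
MT2A: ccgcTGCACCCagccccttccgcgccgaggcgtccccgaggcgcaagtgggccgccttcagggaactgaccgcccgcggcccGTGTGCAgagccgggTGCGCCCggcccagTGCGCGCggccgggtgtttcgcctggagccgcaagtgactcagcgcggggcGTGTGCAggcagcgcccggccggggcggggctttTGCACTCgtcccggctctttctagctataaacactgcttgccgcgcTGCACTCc
SLC30A1: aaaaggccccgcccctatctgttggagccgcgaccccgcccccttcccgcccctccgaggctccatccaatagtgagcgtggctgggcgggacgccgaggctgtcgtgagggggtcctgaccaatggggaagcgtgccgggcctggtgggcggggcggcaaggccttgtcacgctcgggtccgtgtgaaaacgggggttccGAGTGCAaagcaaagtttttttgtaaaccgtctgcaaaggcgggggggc
MT1X: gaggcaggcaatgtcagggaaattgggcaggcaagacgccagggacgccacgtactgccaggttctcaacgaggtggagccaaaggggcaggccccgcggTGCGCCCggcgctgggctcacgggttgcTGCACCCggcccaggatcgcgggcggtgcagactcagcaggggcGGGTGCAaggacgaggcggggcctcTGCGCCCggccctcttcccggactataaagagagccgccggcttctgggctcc

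MT2A held 7 such matches, MT1X held 4 and SLC30A1 held 1, at bases -49 to -43 from its start. The MTF1 promoter held 0. Of 35116 RefSeq promoters of the same length, 0.0313% held at least 7 matches, 0.37% at least 4 and 24.8% at least 1. The core of the antioxidant response element, searched as TGACNNNGC on both strands, was found 1 time each in MT2A, MT1X and SLC30A1, and in 10.9% of all promoters. A match is a run of letters and not a measured binding site.

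**Figure D1:**
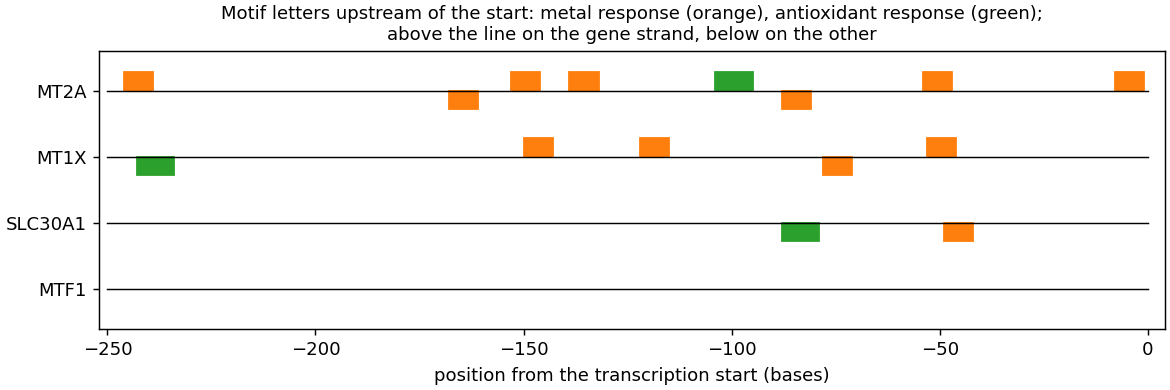
Matches to the metal response element core (orange) and the antioxidant response element core (green) in the 250 bases before the transcription start of 4 genes, drawn to scale with the distance from the start in bases on the x axis, above the line on the gene's strand and below it on the other. MT2A carries 7 metal response matches, MT1X 4, SLC30A1 1 and MTF1 0.

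The coding sequences of MT2A, MT1X, MT1F, MT1G, MT1M and the related gene MT1A were 88.5% to 93.5% identical over 15 pairs (median 91.3%), which bears on how reads can be assigned. MT1E was left out of this range because its canonical transcript in GENCODE has a longer coding sequence of 381 bases, 40.9% to 42.3% identical to the others when aligned over its full length. A search for exact repeats of 50 bases, the shortest read kept, found none for windows within exons of MT2A, MT1X, MT1F, MT1G or MT1M. For MT1E 2.78% of windows were found elsewhere in the genome and for MTF1 1.07%. The search kept only alignments identical over their whole length, so it can miss an exact run inside a longer, imperfect match. Windows across exon junctions were not searched. These shares are therefore lower limits, and the search does not settle how reads of these genes were assigned. Reads that did not align uniquely were set aside by the counting and made up 7.83% to 8.91% of the alignment records in the 14 libraries with a group.

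The libraries held 2642377 to 5605072 counts on genes, and 3 counts, the smallest number taken as detectable, corresponded to 0.535 to 1.14 CPM (counts scaled to library size), a limit that covers counting error only. CDKN1A, a p53 target used to check the oxygen labels, was 965 to 1140 CPM in hyperoxia and 65.1 to 108 in normoxia, and CYP26B1, a retinoic acid target, was 373 to 860 CPM with ATRA and 35.4 to 98.7 without. Of the epithelial markers, KRT8, KRT18, KRT19 and CDH1 were detected in all 14 libraries with a group. EPCAM had 0 to 24 counts, with a count in 11 of the 14 libraries. The summed level of 6 alveolar type II markers was at most 3.43 CPM. The first library in hyperoxia without vehicle stood apart: 12657 genes had a count there, against 16465 to 20108 in the other 13, and its chi-square per degree of freedom against its replicate was 31.5, where other replicate pairs gave 3.98 to 16.8. The kit marks strand, but TALAM1 held 193% as many counts as MALAT1 on the opposite strand, and PCNA-AS1 held 94.3% as many as PCNA, so reads of a member's own strand and of the strand opposite to it cannot be told apart here.

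MT2A and MT1X carried nearly all of the metallothionein counts. MT2A had 111 to 433 counts per library and MT1X 14 to 48. MT1F had 0 to 17, with a total of 56 over the 14 libraries. MT1E, MT1G and MT1M were at 0 in every library, so only the limit of 3 counts can be given for them, which holds for the reads as counted, with the strand setting unknown. They were not alone in this, as 17596 of the listed genes (40.6%) were at 0 in every library. Among the other metallothionein genes and pseudogenes on a list, 10 of 15 had a row. MT1A had 2 to 42 counts, MT1DP, MT3, MT1L and MT1JP had at most 4, and MT1B, MT1H, MT1HL1, MT1IP and MT4 had 0. Of the 8 members, MT2A, MT1X, MT1F, MTF1 and SLC30A1 passed the filter on low counts and were tested.

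**Figure D2:**
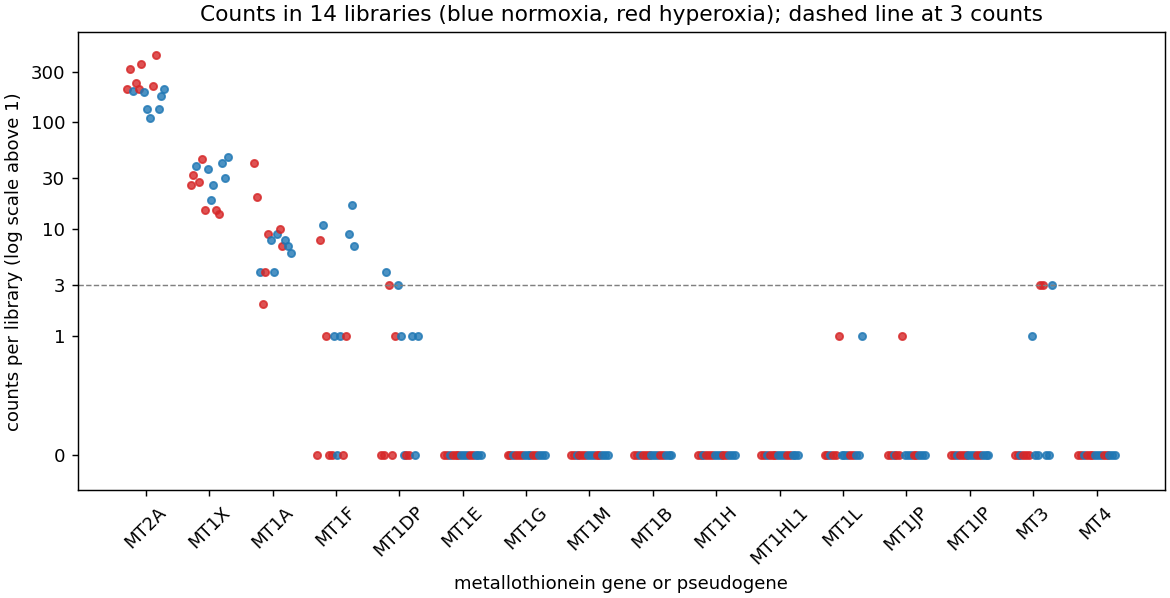
Counts per library (y axis, log scale above 1) of the 16 metallothionein genes and pseudogenes with a row, in 7 normoxia (blue) and 7 hyperoxia (red) libraries, with the dashed line at 3 counts. MT2A lies at 111 to 433 counts and MT1X at 14 to 48, while MT1E, MT1G and MT1M sit at 0 throughout.

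Levels of different genes were set side by side per kilobase of canonical transcript. In normoxia with vehicle, MT2A was at 104 ± 16.4 CPM per kilobase (SD, n = 2), MT1X at 18.8 ± 3.34, SLC30A1 at 11 ± 0.672 and MTF1 at 3.91 ± 0.802. In hyperoxia with vehicle, MT2A was at 212 ± 29.3, SLC30A1 at 23.9 ± 1.68, MT1X at 8 ± 2.63 and MTF1 at 4.83 ± 0.267 (SD, n = 2 each). In these vehicle libraries MT2A was the most abundant member on this scale at both oxygen exposures, and SLC30A1 and MT1X changed places. They did not in the other groups, where hyperoxia had MT1X at 22.2 ± 18.7 and SLC30A1 at 20.8 ± 2.59 with ATRA (SD, n = 3), and 17.7 ± 6.9 and 17.6 ± 6.59 without vehicle (SD, n = 2), differences far within the SD.

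Among vehicle libraries, the comparison that isolates oxygen, SLC30A1 and MT2A rose in hyperoxia and no other member passed the test. SLC30A1 was 62.3 and 67.9 CPM in the normoxia libraries and 148 and 134 CPM in the hyperoxia libraries. Its log2 fold change was 1.11 (standard error 0.183), a 2.16-fold increase, with an adjusted p of 0.000153 in the quasi-likelihood test of edgeR (Benjamini-Hochberg method, 14957 genes tested). MT2A was 46.3 and 37.0 CPM in normoxia and 93.2 and 76.6 CPM in hyperoxia. Its log2 fold change was 1.04 (standard error 0.23), a 2.05-fold increase, with an adjusted p of 0.00272 from the same edgeR test. For both genes each hyperoxia library was above each normoxia library. How many of all genes tested separate in this way, here or in the comparisons below, is not given. In this comparison 17.5% of all genes tested were called, 8.68% as higher, against 2 of the 5 tested members, both higher.

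MT1X, the second metallothionein by level, did not follow MT2A. It was 6.62 and 8.53 CPM in normoxia and 3.98 and 2.48 CPM in hyperoxia, and its log2 fold change was -1.26 with a 95% interval from -2.63 to 0.11 (adjusted p = 0.223, edgeR). The groups did not overlap, but the hyperoxia values rest on 15 and 14 counts. Over 9 alternatives other than leaving out a library, the log2 fold change of MT1X ran from -1.35 to -0.67. It passed in none of them. MT1F had 0 and 7 counts in normoxia and 0 and 1 in hyperoxia, too few for a statement on direction. MTF1 was 35.5 and 26.5 CPM in normoxia and 39.8 and 36.8 CPM in hyperoxia, a log2 fold change of 0.32 with an interval from -0.17 to 0.81 (adjusted p = 0.413, edgeR).

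The call of SLC30A1 held under each of the 9 alternatives run for it and with each library left out, with log2 fold changes from 0.83 to 1.16. The call of MT2A was lost without the first hyperoxia library with vehicle (log2 fold change 0.87, adjusted p = 0.0597) and without the second normoxia library with vehicle (0.85, adjusted p = 0.0833), in the same edgeR test. The summed level of the 5 epithelial markers was 5760 to 9580 CPM in normoxia and 1690 to 4210 in hyperoxia, and that of 3 leukocyte markers 17.4 to 32.8 and 60.6 to 103, all but entirely CD68, with PTPRC at no more than 1 count and CD3E at 0. The part of these shifts in the members' levels was not tested, and in bulk RNA fewer cells of a kind and less RNA per cell cannot be told apart.

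**Figure D3:**
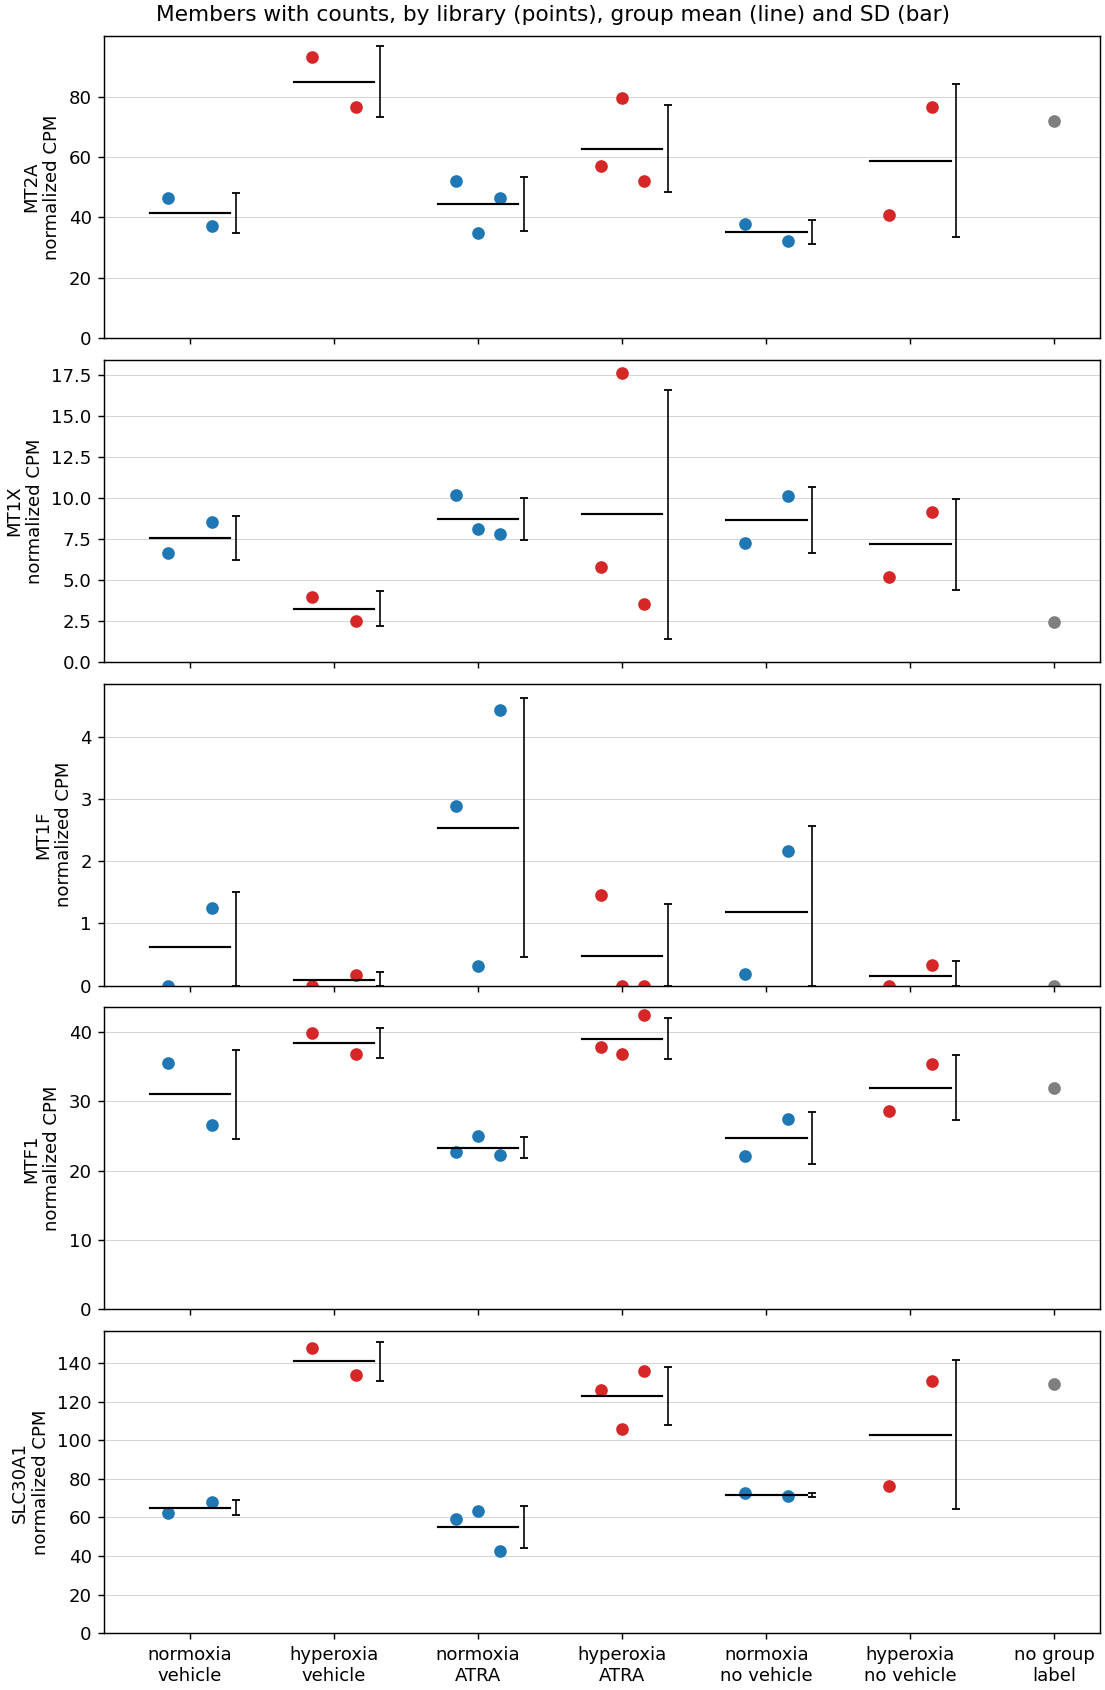
Normalized CPM (y axes, each from 0) of the 5 tested members, 1 point per library, with the group mean (line) and SD (bar), by oxygen exposure and treatment, normoxia in blue, hyperoxia in red and the library without a group in grey. SLC30A1 is at 76.1 to 148 CPM in the 7 hyperoxia libraries and 42.8 to 72.5 in the 7 normoxia libraries, while MT1X and MT1F overlap.

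With ATRA present at both oxygen exposures, SLC30A1 rose again, MTF1 also rose, and MT2A did not pass the threshold. SLC30A1 was 59.3, 63.5 and 42.8 CPM in normoxia and 126, 106 and 136 CPM in hyperoxia, 2.24-fold higher (log2 fold change 1.16, standard error 0.153) (adjusted p = 9.06e-06, edgeR). MTF1 was 22.7, 25 and 22.2 CPM in normoxia and 37.8, 36.8 and 42.4 CPM in hyperoxia, 1.68-fold higher (log2 fold change 0.74, standard error 0.196) (adjusted p = 0.00842, edgeR). In both genes the lowest hyperoxia library exceeded the highest normoxia library. MT2A was 52.0, 34.7 and 46.4 CPM in normoxia and 57.1, 79.4 and 52.1 CPM in hyperoxia. Its log2 fold change was 0.48 with an interval from 0.09 to 0.88 (adjusted p = 0.073, edgeR), and the nearest libraries of the 2 exposures all but met at 52.0 and 52.1 CPM.

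MT1X under ATRA was 10.2, 8.13 and 7.82 CPM in normoxia and 5.78, 17.6 and 3.55 CPM in hyperoxia, so that the hyperoxia libraries lay on either side of the normoxia ones. MT1F had 11, 1 and 17 counts in normoxia and 8, 0 and 0 in hyperoxia. Its log2 fold change of -2.13 did not pass (adjusted p = 0.273, edgeR) but did without the first hyperoxia library with ATRA (-6.37, adjusted p = 0.0451), which left it at 0 counts in both remaining hyperoxia libraries. In this comparison 22.7% of all genes tested were called, 11.4% as higher, against 2 of the 5 tested members, both higher. MT2A passed in 1 of the 10 fits that each left out a library, the one without the third hyperoxia library with ATRA (0.59, adjusted p = 0.0497, edgeR).

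**Figure D4:**
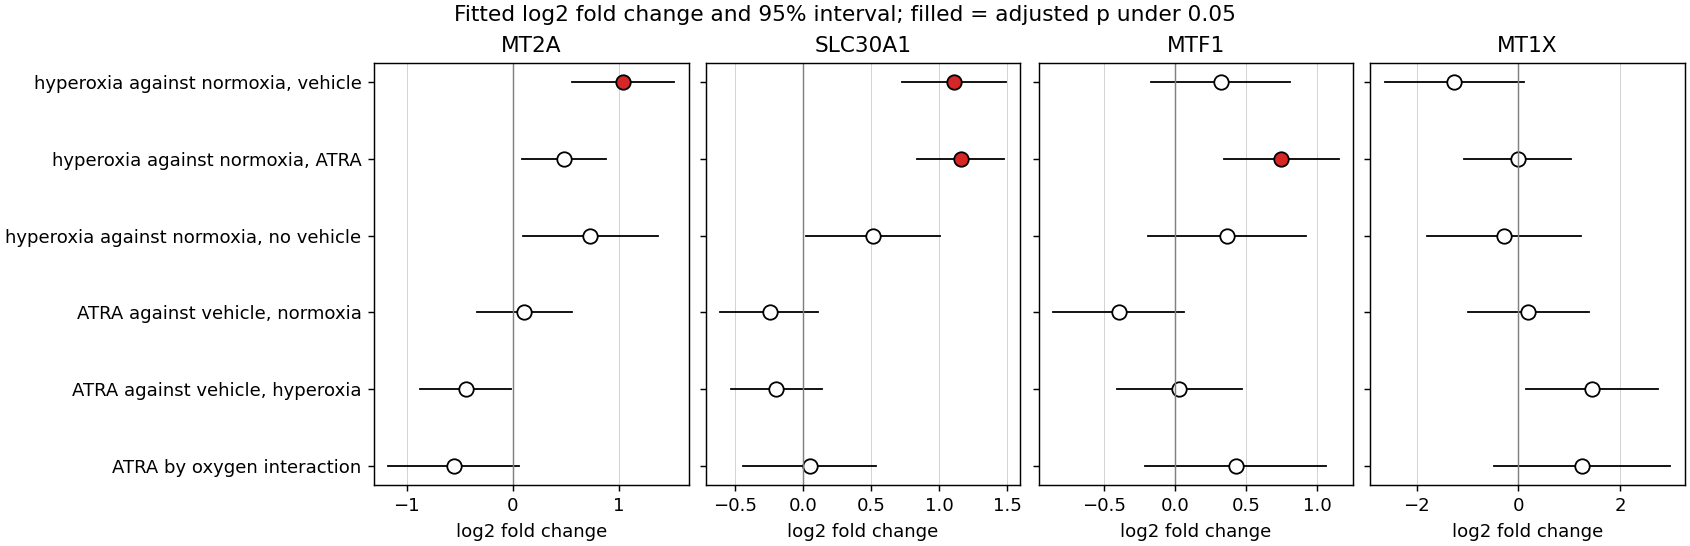
Log2 fold changes (x axes, one range per panel) with 95% intervals of MT2A, SLC30A1, MTF1 and MT1X in 6 comparisons, filled where the adjusted p was under 0.05. SLC30A1 is filled in hyperoxia against normoxia with vehicle and with ATRA, MT2A with vehicle alone and MTF1 with ATRA alone.

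Whether ATRA altered the members at a given oxygen exposure was asked in 2 comparisons, and no member passed in either. In hyperoxia MT2A averaged 84.9 ± 11.8 CPM with vehicle (SD, n = 2) and 62.8 ± 14.5 CPM with ATRA (SD, n = 3). The log2 difference was -0.44, with an interval from -0.87 to -0.02 (unadjusted p = 0.0396, adjusted p = 0.335, edgeR), and one ATRA library, at 79.4 CPM, was within the vehicle range. Over 10 alternatives other than leaving out a library, the log2 difference ran from -0.47 to -0.21. Among these, the fit of summed metallothionein counts gave a value for the sum and not for MT2A alone. MT1X averaged 3.23 ± 1.07 CPM with vehicle and 8.99 ± 7.57 CPM with ATRA, a log2 difference of 1.44 with an interval from 0.15 to 2.73 (unadjusted p = 0.0307, adjusted p = 0.297, edgeR). The SD of the ATRA group exceeded the difference between these means, since one library was at 17.6 CPM and another at 3.55. Without the former, the second library with ATRA, the log2 difference was 0.55, and it was 0.77 with the vehicle and no vehicle libraries pooled. SLC30A1 averaged 141 ± 10.2 CPM with vehicle and 123 ± 15.1 with ATRA (log2 difference -0.20, interval -0.53 to 0.14). MTF1 averaged 38.3 ± 2.15 and 39.0 ± 2.96 CPM (log2 difference 0.03, interval -0.41 to 0.47). In this comparison 2.21% of all genes tested were called.

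In normoxia SLC30A1 averaged 65.1 ± 3.92 CPM with vehicle (SD, n = 2) and 55.2 ± 11 CPM with ATRA (SD, n = 3), and the log2 difference was -0.25 with an interval from -0.61 to 0.11 (adjusted p = 0.8, edgeR). MTF1 averaged 31.0 ± 6.40 and 23.3 ± 1.51 CPM, with each ATRA library below each vehicle library, and its log2 difference was -0.40 with an interval from -0.86 to 0.06 (adjusted p = 0.68, edgeR). MT2A averaged 41.6 ± 6.62 and 44.4 ± 8.83 CPM, and MT1X 7.57 ± 1.35 and 8.72 ± 1.29 CPM. The intervals of MT2A (-0.34 to 0.56) and SLC30A1 are narrow enough to leave out a doubling or a halving, while that of MT1X (-1 to 1.38) is not. In this comparison 1.25% of all genes tested were called.

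The oxygen effects with and without ATRA were compared by an interaction term, for which 0.14% of all genes tested and no member were called. The oxygen effect of MT2A was smaller with ATRA by a log2 difference of -0.55 (interval -1.17 to 0.06, unadjusted p = 0.0765, adjusted p = 0.757, edgeR). MTF1 gave 0.43 (interval -0.21 to 1.06, adjusted p = 0.836, edgeR) and SLC30A1 0.05 (interval -0.44 to 0.54, adjusted p = 0.986, edgeR). The call of MT2A with vehicle alone and of MTF1 with ATRA alone is therefore not a difference between the 2 oxygen effects that the test detected. DESeq2 on the same groups also called 0 members for ATRA at each exposure and for the interaction, and 2 members, MT2A and MT1X in hyperoxia, had an unadjusted p under 0.05 in edgeR.

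The libraries without vehicle gave the oxygen comparison in other samples, and here no member passed. SLC30A1 was 72.5 and 71.2 CPM in normoxia and 76.1 and 131 CPM in hyperoxia (log2 fold change 0.52, interval 0.02 to 1.01, adjusted p = 0.148, edgeR). MT2A was 37.9 and 32.2 CPM in normoxia and 40.8 and 76.7 CPM in hyperoxia (0.73, interval 0.10 to 1.37, adjusted p = 0.112, edgeR). The lower hyperoxia value of each gene belonged to the library that stood apart. Without it, SLC30A1 rose by 0.86 and MT2A by 1.12 on the log2 scale in edgeR. This fit assumes that the lone remaining hyperoxia library varies like the other groups. Over all fits that left out 1 library, the values were 0.03 to 0.86 for SLC30A1 and 0.16 to 1.12 for MT2A. MTF1 was 22.1 and 27.4 CPM in normoxia and 28.6 and 35.3 CPM in hyperoxia, and MT1X 7.23 and 10.1 CPM against 5.20 and 9.14 CPM. In this comparison 15.2% of all genes tested were called.

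Over the 6 groups, the mean of SLC30A1 ran from 55.2 CPM in normoxia with ATRA through 65.1 with vehicle and 71.8 without vehicle to 103, 123 and 141 CPM in hyperoxia without vehicle, with ATRA and with vehicle. All 7 hyperoxia libraries were above all 7 normoxia libraries, where the highest normoxia library was at 72.5 CPM and the lowest hyperoxia library, the one that stood apart, at 76.1. Within an oxygen exposure SLC30A1 did not pass between ATRA and vehicle or between vehicle and no vehicle, although the vehicle and no vehicle libraries did not overlap, and ATRA was not compared with no vehicle. Between vehicle and no vehicle, 0 members passed in normoxia, where 0% of all genes tested were called (133 genes at an unadjusted p under 0.05, edgeR), and 0 in hyperoxia, where 0.00652% were (1366 genes at an unadjusted p under 0.05). In hyperoxia this rests on the second library without vehicle: when the library that stood apart alone represented its group, SLC30A1 (0.92, adjusted p = 0.0031) and MT2A (1.08, adjusted p = 0.00606) were higher with vehicle in the edgeR test, with the spread of that single library taken from the other groups.

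Of 32 other zinc and copper transport genes on a list, 27 were tested, and 3 of them were called with vehicle, all higher, where 17.5% of all genes tested were called and 8.68% as higher. There, SLC39A14, a plasma membrane importer of zinc, iron and manganese, rose from 168 ± 8.64 to 266 ± 12.1 CPM (log2 fold change 0.66, adjusted p = 0.00164, edgeR). SLC30A7, which loads zinc into the Golgi, rose from 23.0 ± 0.414 to 42.4 ± 0.91 CPM (0.88, adjusted p = 0.0191), and SLC39A1, a plasma membrane zinc importer, from 107 ± 16.5 to 155 ± 18.2 CPM (0.53, adjusted p = 0.0291), in the same edgeR test (SD, n = 2 per group). None was called lower, the other 24 did not pass, and the median log2 fold change of the 27 was 0.11, against 0.01 over all genes tested. The number called was 1 to 3 with libraries left out singly and 1 to 8 over the other alternatives, so not all 3 calls held throughout. With ATRA at both exposures SLC39A14 was the 1 of the 27 to pass, where 22.7% of all genes tested did, from 148 ± 11.5 to 208 ± 17.8 CPM (SD, n = 3; 0.49, adjusted p = 0.00302, edgeR).

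Without vehicle, SLC39A14 (0.49), SLC39A1 (0.66) and SLC39A13 (1.10), another zinc importer, rose on the log2 scale, and SLC30A5 (fell by 0.79), a zinc transporter of the secretory pathway, and SCO1 (fell by 0.67), a copper chaperone of cytochrome c oxidase, were lower, where 15.2% of all genes tested were called. The median over the 27 was -0.17 there, and -0.10 over all genes tested. Leaving out the library that stood apart kept the calls of SLC39A14 (0.67, adjusted p = 0.0118) and SLC39A13 (1.22, adjusted p = 0.0251) in edgeR. The other 3 no longer passed with one library fewer, at 0.51 for SLC39A1, -0.73 for SLC30A5 and -0.49 for SCO1. These 5 calls are unstable: 0 genes of the list passed when only the 4 libraries without vehicle were fitted or when the first normoxia library without vehicle was left out, and 18 passed when the second hyperoxia library was. No gene of the list passed in the ATRA comparisons or the interaction.

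**Figure D5:**
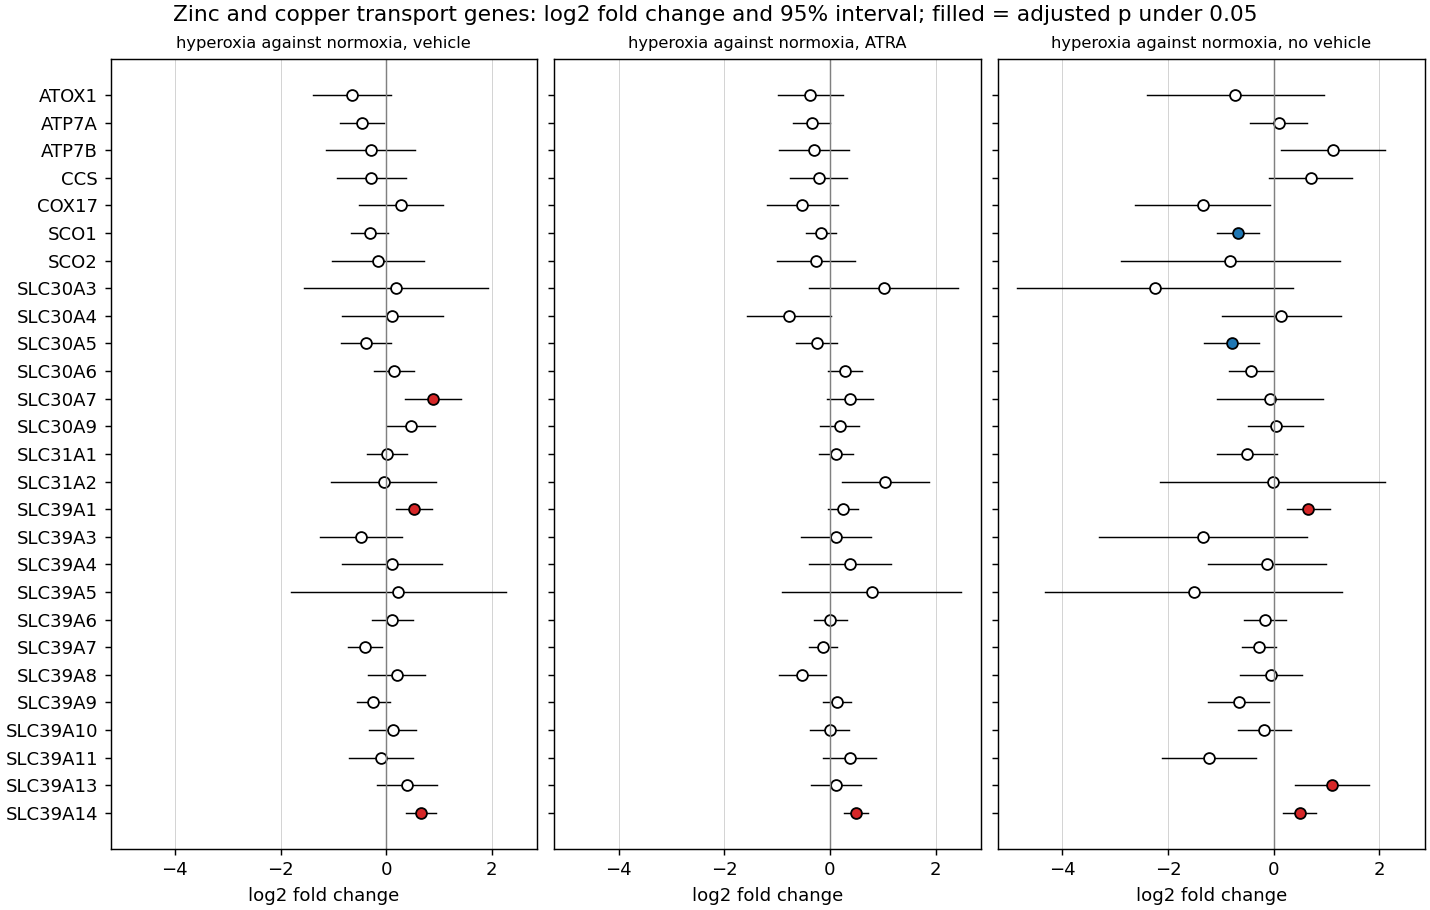
Log2 fold changes in hyperoxia against normoxia (x axes, one range for all panels) with 95% intervals of the 27 tested zinc and copper transport genes, for vehicle, ATRA and no vehicle libraries, red where higher and blue where lower at an adjusted p under 0.05. SLC39A14 is red in all 3 panels.

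Over the 14 libraries with a group, Pearson's r of log2 CPM was 0.85 between MTF1 and SLC30A1 and 0.73 between MT2A and SLC30A1, and it was -0.22 between MT2A and MT1X. After the group means were subtracted, these were 0.47, 0.23 and 0.65, so the sign between MT2A and MT1X was the opposite within groups. The points share libraries, depth and the oxygen contrast, and the values are a description. Among 15334 other genes, the 5 most like SLC30A1 were BTBD9 (0.966), the checkpoint clamp subunit HUS1 (0.962), the AMP deaminase AMPD3 (0.953), the circadian repressor NR1D1 (0.947) and the transcription factor KLF4 (0.946). The 5 most like the summed metallothionein level were SPON1 (0.89), CSRP1 (0.887), SUSD5 (0.883), TSR2 (0.88) and SLC30A9 (0.878), the last of which belongs to the zinc exporter family. Without the library that stood apart these 10 correlations were 0.872 to 0.967.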

How the data were processed

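The members and gene lists were chosen with earlier results of these data known. Per the labels, RNA was taken from 15 A549 libraries prepared with a stranded kit. The authors trimmed reads with Trimmomatic 0.38, discarded those under 50 bases, aligned them to hg38 with HISAT2 and deposited raw counts per gene symbol from HTSeq. The annotation release and strand setting are not given in the sources used here. Rows naming no gene (75.2% to 78.4% of records in the 14 libraries with a group) were left out. Records that met no gene feature made up 48.6% to 55.3% in these libraries, and records on genes 21.6% to 24.8%. The part of the strand setting or annotation in this was not tested.

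The tests were run in edgeR 4.0.16 under R 4.3.3 (filterByExpr with minimum count 10 and minimum total 15, TMM factors, quasi-likelihood test, Benjamini-Hochberg adjustment, threshold 0.05). A fit of 10 libraries in 4 groups (14957 genes) gave the vehicle and ATRA comparisons, and one of 14 libraries in 6 groups (15339 genes) those without vehicle. CPM values are scaled by TMM factors, except the limit of 3 counts, which uses library totals, and log2 CPM used a prior count of 2. Intervals of fold changes are 95% intervals from the fit. The fit was tested on simulated data. Positions came from RefSeq, transcripts from GENCODE 44, and exact 50-base repeats from blastn 2.17.0. Of the 8 members, promoters were found for 4.

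Named genes are the 8 members, other metallothioneins, called genes of the transport list, and the 5 genes most correlated with SLC30A1 and with the metallothionein sum. MALAT1, TALAM1, PCNA and PCNA-AS1 were chosen after their values were seen. Alternatives were RLE factors, library totals, DESeq2 1.42.0, no filter, only the groups compared, 14 libraries, pooled controls, a block of library sets inferred from library numbers, summed metallothionein counts and leaving out each library. Leaving out libraries in the comparisons without vehicle, and omitting the library that stood apart from pooled controls and correlations, were chosen after seeing the data.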

Additional observations from a re-analysis of the deposited data

Results flagged for a closer look

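The library without a group carried a signal for SLC30A1 and MT2A above that of the normoxia vehicle libraries. Its title names hyperoxia and its treatment label names a differentiation protocol, and it entered no comparison. Of the genes used to check the labels, CDKN1A was 1150 CPM in it, against 965 to 1140 in the hyperoxia libraries and 65.1 to 108 in normoxia. CYP26B1 was 42.1 CPM, against 35.4 to 98.7 in libraries without ATRA and 373 to 860 with ATRA. SLC30A1 was 129 CPM there, from 584 counts (95% exact Clopper-Pearson interval 118 to 139 CPM), against 62.3 and 67.9 CPM in normoxia with vehicle and 134 and 148 CPM in hyperoxia with vehicle. MT2A was 71.8 CPM, from 326 counts (interval 64.0 to 79.8 CPM), against 37.0 and 46.3 CPM in normoxia with vehicle and 76.6 and 93.2 CPM in hyperoxia with vehicle. The intervals cover counting error in 1 library only.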

How the results depend on the processing

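The labels give the groups no shared replicate numbers, so libraries were not paired, and the block of library sets was inferred from library numbers. When libraries were left out singly, the number of members called ranged from 1 to 2 for oxygen with vehicle, from 2 to 3 for oxygen with ATRA, from 0 to 2 for oxygen without vehicle and from 0 to 2 for vehicle in hyperoxia, and it was 2 in the RLE, DESeq2, unfiltered, pooled and blocked fits of oxygen with vehicle. For oxygen with vehicle, the metallothionein counts summed into 1 feature gave a log2 fold change of 0.83, which passed, and MT2A itself gave 0.90 with controls pooled. Directions that turned belonged to values that did not pass in either fit. MT1X under oxygen with ATRA was 0.00 with library totals, 0.01 with 14 libraries and -0.91 to 0.37 with libraries left out. MT1F in the interaction was -0.28 with the library set block and -4.27 to 2.31 with libraries left out. The other ranges with libraries left out were -2.10 to 4.16 (MT1F, ATRA in hyperoxia), -4.52 to 2.06 (MT1F, oxygen with vehicle), -2.46 to 2.15 and -5.29 to 1.65 (MT1F, vehicle in hyperoxia and normoxia), -0.06 to 0.26 (MT2A, ATRA in normoxia), -0.04 to 0.07 (MTF1, ATRA in hyperoxia), -0.12 to 0.16 (SLC30A1, interaction), -0.78 to 0.08 (MT1X, oxygen without vehicle) and -0.41 to 0.07 (MT1X, vehicle in normoxia). The cause was not tested. MT1X and MT1F rest on few counts, and nothing can be said of MT1E, MT1G and MT1M below 3 counts. The transport genes called numbered 3 for oxygen with vehicle (1 to 8 over the alternatives), 1 for oxygen with ATRA (1 to 3 with libraries left out, 1 to 2 over the other alternatives), 5 for oxygen without vehicle (0 with only the groups compared, 0 to 18 with libraries left out) and 0 for vehicle in hyperoxia (0 to 17 with libraries left out).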

Other observations

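MT1A, a metallothionein outside the 8 members, was low but uneven. It held 42 counts in the first hyperoxia library without vehicle, the library that stood apart, and 2 in its replicate, or 8.41 and 0.653 CPM. The other 12 libraries with a group were at 1.05 to 3.61 CPM, the highest of them the first hyperoxia library with ATRA with 20 counts. That library also held 8 of the MT1F counts, where its replicates held 0.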
